A study of Papio hamadryas with 14 samples.

Results

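The SLC22 genes encode a family of membrane carriers for organic cations, organic anions and carnitine. The set described here comprised SLC22A2, SLC22A3, SLC22A4, SLC22A5, SLC22A6, SLC22A7, SLC22A8 and SLC22A11, and its members were every probe set that the platform annotation assigns to 1 of these 8 symbols. A probe set is the group of short probes that an Affymetrix array uses to read 1 transcript. The rule found 9 probe sets of 6 genes among the 16186 probe sets of each table, 43 of which are array controls. SLC22A2, SLC22A4, SLC22A5 and SLC22A11 had 1 probe set each, SLC22A6 had 2 and SLC22A7 had 3. SLC22A3 and SLC22A8 were not analysed here.

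Messenger RNA of whole baboon kidney (Papio hamadryas) was measured on human Affymetrix arrays. The labels give 4 fetal groups by day of gestation, 60dG with 2 arrays and 90dG, 125dG and 160dG with 3 arrays each, all described as biological replicates without a treatment. The adult group held 3 arrays, from animals aged 6, 12 and 7 years as replicates 1, 2 and 3. The fetal and adult samples were hybridised to different array types and deposited in separate tables. Each value is the linear signal intensity of a probe set, and the number of arrays limits the precision. Differences are given on the scale of log2(signal + 16), with the standard error from limma. A difference was called where its Benjamini-Hochberg adjusted p over all 16143 probe sets other than controls was under 0.05.

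In the kidney, carriers of this family sit mainly in the cells of the proximal tubule, the segment that takes up drugs, toxins, urate and metabolites from blood and filtrate. SLC22A2 (organic cation transporter OCT2) and SLC22A6 (organic anion transporter OAT1) load the cell from the blood side, SLC22A6 in exchange for dicarboxylates. SLC22A7 (OAT2) is a further anion carrier. SLC22A4 (OCTN1, an ergothioneine carrier), SLC22A5 (OCTN2, the sodium-dependent carnitine carrier) and SLC22A11 (OAT4, which carries steroid sulphates and urate) lie on the luminal side. Organic ions that enter from blood then leave for the urine through other apical carriers and pumps.

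Some arrays stood apart before any SLC22 value was compared. Markers of the adrenal cortex, a gland that lies against the kidney, had a summed signal of 7458 in 60dG replicate 2 and of 167 in 60dG replicate 1, against 168 to 357 on the other fetal arrays and 605 to 640 in adults, over 5 of 6 listed genes. The 90dG arrays had ratios of 3' to 5' GAPDH control signal of 1.78, 2.46 and 3.43 in replicates 1, 2 and 3, where the other fetal arrays had 1.62 to 1.99. The adult arrays were brighter at their dim end, the highest of 9 bacterial control probe sets reading 136.7 to 197.9, against 46.4 to 109.7 on fetal arrays. Proximal tubule markers, 19 of 28 measured, had a summed signal of 5105 to 6218 at 60dG, 12258 to 17392 at 90dG, 16168 to 18239 at 125dG, 13667 to 29393 at 160dG and 34259 to 39219 in adults. In whole kidney RNA, fewer cells of a type and less RNA per cell cannot be told apart.

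From 60dG to 160dG, SLC22A2, SLC22A11 and 1 of the 3 SLC22A7 probe sets rose, and no SLC22 probe set fell. Of all probe sets, 4.83% were called in this comparison, 2.77% as higher, against 3 of 9 SLC22 probe sets. The 160dG arrays lay above both 60dG arrays without overlap for 6 of the 9, and for 17.3% of all probe sets. Most of the difference was already present at 90dG for SLC22A2, 2.37 of 2.81, and for SLC22A7 221662_s_at, 1.09 of 1.38. SLC22A11 measured 2.75 at 90dG and 3.89 at 160dG, but its 60dG arrays read at array background, so its share at 90dG is not settled. On this scale, with all fetal arrays kept and weighted equally, SLC22A4, SLC22A5 and SLC22A6 passed no test between fetal stages. SLC22A6 was instead set apart in the adult, with signals between 658.9 and 1487 on its 2 probe sets, where no fetal array exceeded 130.5.

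**Figure D1:**
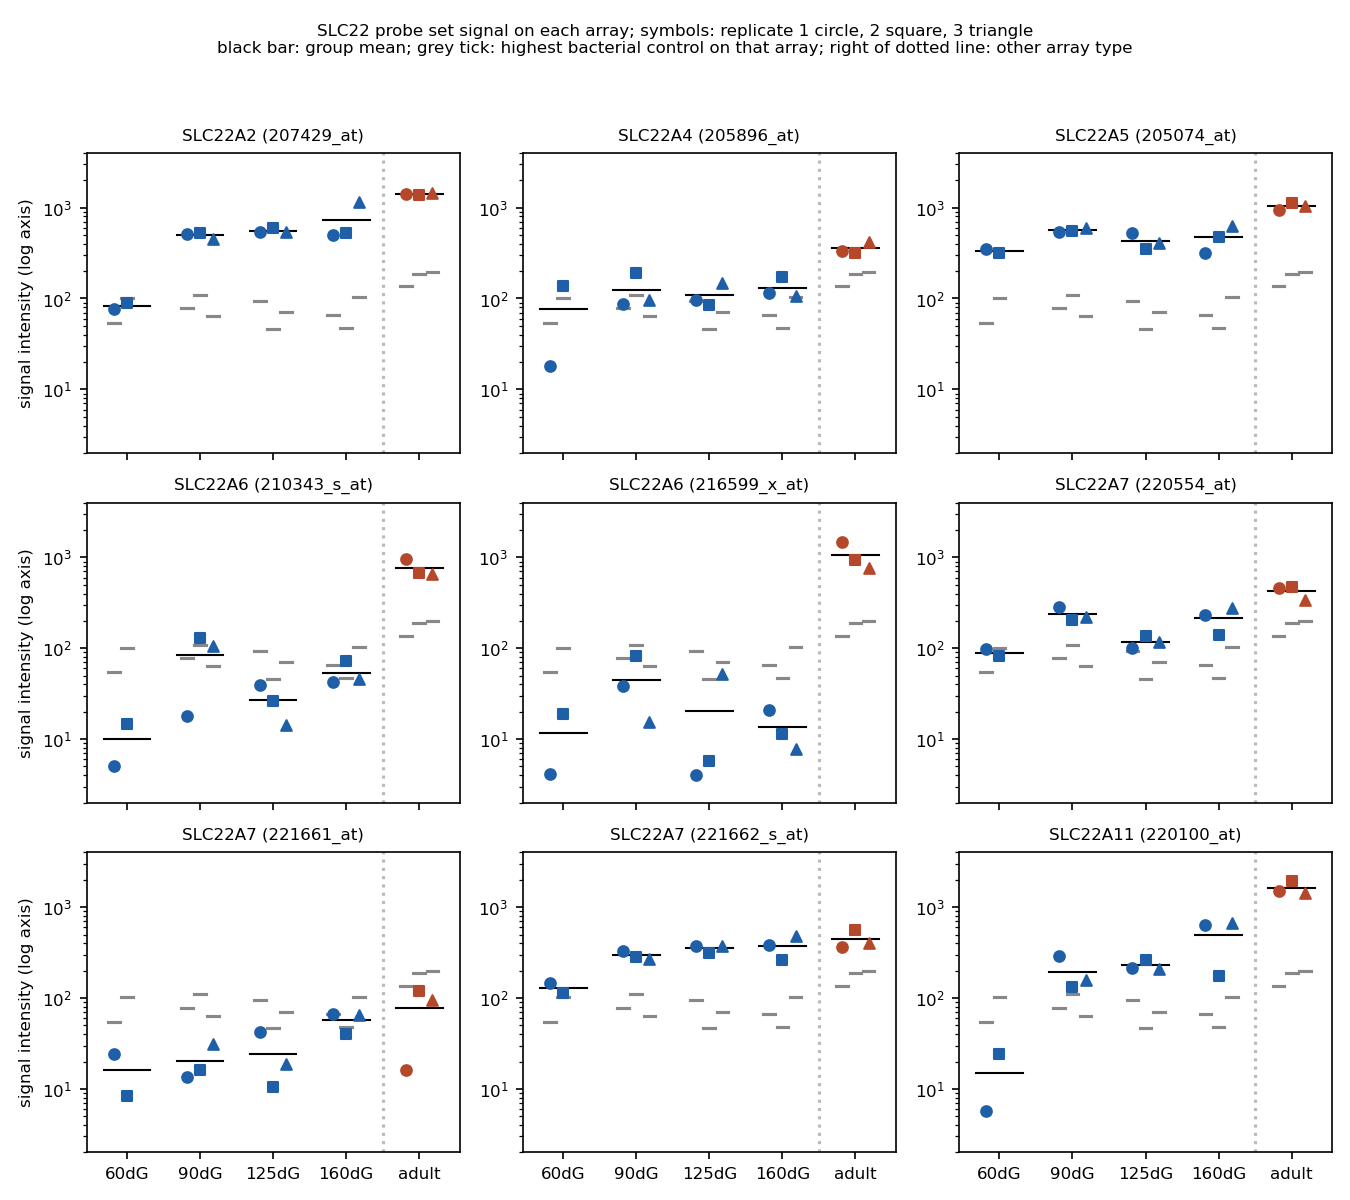
Signal intensity (log axis) of the 9 SLC22 probe sets on each of the 11 fetal and 3 adult arrays. Points are arrays, black bars are group means, and grey ticks mark the highest bacterial control on the same array. SLC22A2 and SLC22A11 step up after 60dG, while both SLC22A6 probe sets stay near or below the control ticks until the adult arrays.

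SLC22A2, the organic cation carrier, made its rise between the first 2 stages. The SLC22A2 probe set (207429_at) gave signals of 77.4 and 88.9 at 60dG, 513.8, 519.9 and 451.7 at 90dG, 537.2, 604 and 537.4 at 125dG, and 504.9, 528.7 and 1159.4 at 160dG. Every array from 90dG on lay above both 60dG arrays, the values from 90dG to 160dG replicate 2 formed a narrow band, and 160dG replicate 3 stood above all other fetal arrays. SLC22A2 rose by 2.37 ± 0.29 from 60dG to 90dG (SE, n = 2 and 3; limma, adjusted p = 0.00104). From 60dG to 160dG it rose by 2.81 ± 0.29 (limma, adjusted p = 6.92e-05; 95% interval 2.18 to 3.43). The 88.9 of 60dG replicate 2 lay below that array's highest bacterial control, 101.6. With this array raised to the control, the differences from 60dG were 2.28 at 90dG and 2.73 at 160dG. The later steps were 0.17 ± 0.26 from 90dG to 125dG (limma, adjusted p = 0.787) and 0.27 ± 0.26 from 125dG to 160dG (limma, adjusted p = 0.953), and neither passed, although all 3 arrays at 125dG lay just above those at 90dG. The moderated F over the 4 stages passed (limma, adjusted p = 0.00032), as did the slope of 0.22 ± 0.05 per 10 days of gestation (limma, adjusted p = 0.0184). That slope no longer passed with 60dG replicate 1 (limma, adjusted p = 0.087), 60dG replicate 2 (0.0786) or 160dG replicate 3 (0.0713) left out. The high 160dG replicate 3 was also the fetal array with the highest summed proximal tubule signal, 29393, against 21804 and 13667 in replicates 1 and 2. The part of tubule content in that array's value was not tested.

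The OCTN carriers changed less. SLC22A5 (205074_at), the carnitine carrier, read 349.7 and 315.8 at 60dG, 537.4, 549.2 and 596.5 at 90dG, 526.1, 354.3 and 402.8 at 125dG, and 316.5, 476 and 633.1 at 160dG. All 3 arrays at 90dG lay above both 60dG arrays and above every 125dG array, while the 160dG arrays spanned the range of the other stages. The difference from 60dG to 90dG was 0.73 ± 0.26 (limma, adjusted p = 0.14) and that from 60dG to 160dG was 0.44 ± 0.26 (limma, adjusted p = 0.435; 95% interval -0.11 to 1.00). SLC22A5 exceeded the highest bacterial control on all 11 fetal arrays.

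SLC22A4 (205896_at) read 17.9 and 135.8 at 60dG, 87.8, 190.5 and 96.9 at 90dG, 95.8, 84.8 and 146.3 at 125dG, and 115.4, 174.2 and 106.4 at 160dG. Its 60dG arrays lay at opposite ends, replicate 1 below every other fetal array and replicate 2 inside the range of the later stages. The difference from 60dG to 160dG was 1.02 ± 0.54 (limma, adjusted p = 0.377; 95% interval -0.14 to 2.18). Without 60dG replicate 2, the array with the adrenal signal, it was 2.10, and the 60dG level then rested on replicate 1 alone. The 17.9 of that array lay below its highest bacterial control, 54.3. With both 60dG arrays kept and replicate 1 raised to that control, the difference was 0.49. Without 60dG replicate 1 the difference as measured was -0.06. The level of SLC22A4 at 60dG thus rests on which of the 2 arrays is read, and the part of adrenal RNA in it was not tested.

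SLC22A4 and SLC22A5 are close relatives that lie next to each other in the human genome, and their log ratio was compared within each array. SLC22A5 minus SLC22A4 was 2.28 ± 1.63 at 60dG (SD, n = 2), 2.10 ± 0.56 at 90dG, 1.84 ± 0.46 at 125dG and 1.71 ± 0.61 at 160dG (SD, n = 3 each), in log2 units. The stage means differed by less than the spread between arrays (exact permutation test of the stage F, p = 0.87 over 92400 assignments). The difference from 60dG to 160dG was -0.57 and ran from -1.73 without 60dG replicate 2 to 0.58 without 60dG replicate 1, so its sign also hung on the 60dG arrays.

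Among the organic anion carriers, SLC22A11 rose from a 60dG level at array background. SLC22A11 (220100_at) read 5.7 and 24.2 at 60dG, 291.8, 130.7 and 156 at 90dG, 216.4, 263.4 and 209.9 at 125dG, and 629.3, 173 and 674.6 at 160dG. Neither 60dG array exceeded its highest bacterial control and all 9 later arrays did. At 160dG, replicates 1 and 3 stood above every earlier array and replicate 2 lay among the 90dG and 125dG values.

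SLC22A11 rose by 2.75 ± 0.51 from 60dG to 90dG (SE, n = 2 and 3; limma, adjusted p = 0.0118) and by 3.89 ± 0.51 from 60dG to 160dG (limma, adjusted p = 0.000409; 95% interval 2.80 to 4.98). With 60dG replicate 1 left out, the first of these was 2.30 and did not pass (limma, adjusted p = 0.138). With the 60dG arrays set at their highest bacterial control in place of their own signal, the 160dG level was at least 4.82-fold and the 90dG level at least 2.18-fold higher, or 2.27 and 1.12 on the log2 scale. The step from 125dG to 160dG was 0.84 ± 0.46 (limma, adjusted p = 0.864). The slope was 0.33 ± 0.06 per 10 days (limma, adjusted p = 0.00679) and the F over stages passed (limma, adjusted p = 0.00239). The low 160dG replicate 2 and the high replicates 1 and 3 followed the order of the summed proximal tubule signal on the same arrays, whose part was not tested.

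The 3 SLC22A7 probe sets did not follow 1 course. Probe set 221662_s_at read 147.1 and 113.8 at 60dG, 331.9, 286 and 269.3 at 90dG, 371.2, 310.3 and 372.9 at 125dG, and 381.5, 262.1 and 477.4 at 160dG. Its later arrays all lay above both 60dG arrays and overlapped one another from stage to stage. It rose by 1.38 ± 0.26 from 60dG to 160dG (SE, n = 2 and 3; limma, adjusted p = 0.00617), a call lost without 60dG replicate 2 (0.0725). It rose by 1.09 ± 0.26 from 60dG to 90dG (limma, adjusted p = 0.0355), a call lost in 10 of 20 alternatives, among them leaving out either 60dG array (0.13 and 0.205), any 90dG array (0.0501 to 0.0755), or 125dG replicate 1 (0.0519) or 2 (0.051). Its F over stages (limma, adjusted p = 0.015) was lost without 60dG replicate 1 (0.0591) or replicate 2 (0.13). Its slope of 0.12 ± 0.03 per 10 days (limma, adjusted p = 0.0454) was lost in 10 of 21 alternatives, among them leaving out any array of 60dG or 125dG, or 160dG replicate 1 or 3 (0.0637 to 0.16).

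Probe set 220554_at of SLC22A7 went up, down and up again. It read 97.4 and 81.3 at 60dG, 285.8, 202.5 and 222.2 at 90dG, 100, 137.1 and 116.5 at 125dG, and 231.3, 139.1 and 280.1 at 160dG. Each stage lay clear of the next, 125dG below 90dG and 160dG above 125dG. It rose by 1.25 ± 0.32 from 60dG to 90dG (limma, adjusted p = 0.0474) and its F over stages passed (limma, adjusted p = 0.0464). The differences from 90dG to 125dG, -0.91 ± 0.29 (limma, adjusted p = 0.108), from 125dG to 160dG, 0.76 ± 0.29 (limma, adjusted p = 0.689), and from 60dG to 160dG, 1.10 ± 0.32 (limma, adjusted p = 0.0723), did not pass. Without 160dG replicate 2 the last of these was 1.37 and passed (limma, adjusted p = 0.0284). The 81.3 of 60dG replicate 2 lay below that array's highest bacterial control, 101.6. With this array raised to the control, the differences from 60dG were 1.12 at 90dG and 0.96 at 160dG. The call from 60dG to 90dG was lost in 12 of 18 alternatives, with any 60dG, 90dG or 125dG array or 160dG replicate 1 left out (0.0603 to 0.216). The F over stages was lost in 14 of 19, with any array of those stages or 160dG replicate 1 or 3 left out (0.0658 to 0.127).

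The third SLC22A7 probe set, 221661_at, was dim. It ranged from 8.3 to 42.6 between 60dG and 125dG, and 67.5, 40.3 and 65 at 160dG all lay above the 60dG signals of 24 and 8.3. Only 160dG replicate 1 exceeded its array's highest bacterial control, and the difference from 60dG to 160dG, 1.22 ± 0.46, did not pass (limma, adjusted p = 0.175). Across the 11 fetal arrays, which share 1 RNA preparation per array among probe sets, Pearson's r was 0.62 between 220554_at and 221662_s_at, 0.54 between 221661_at and 221662_s_at, and 0.37 between 220554_at and 221661_at.

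SLC22A6, the classical basolateral anion exchanger, stayed at the dim end of the fetal arrays. Probe set 210343_s_at read 5.1 and 14.8 at 60dG, 17.8, 130.5 and 106.9 at 90dG, 39.4, 26.2 and 14.3 at 125dG, and 42.6, 73.2 and 45.9 at 160dG. It exceeded the highest bacterial control on 3 of 11 fetal arrays, 90dG replicates 2 and 3 and 160dG replicate 2. The first 2 of these are also the fetal arrays with the highest GAPDH ratios, 2.46 and 3.43. A fit with that ratio as a covariate is given below, and the ratio's own part was not tested. The difference from 60dG to 160dG was 1.43 ± 0.57 (limma, adjusted p = 0.207) and that from 60dG to 90dG was 1.73 ± 0.57 (limma, adjusted p = 0.112). Without the dim 90dG replicate 1 the latter was 2.40 and passed (limma, adjusted p = 0.00865), as did a difference of -1.70 from 90dG to 125dG (limma, adjusted p = 0.029) and the F over stages (limma, adjusted p = 0.0146). With array weights, which gave that array the lowest weight, the difference from 60dG to 90dG was 2.10 and passed (limma, adjusted p = 0.0286), as did the F (limma, adjusted p = 0.0494). With the GAPDH ratio as a covariate, the difference from 60dG to 90dG was 0.90 (limma, adjusted p = 0.433). Probe set 216599_x_at ranged from 4 to 81.2 over the fetal arrays, exceeded the control on 0 of 11, and differed by 0.13 ± 0.60 from 60dG to 160dG (limma, adjusted p = 0.958). The r between both SLC22A6 probe sets over the fetal arrays was 0.25.

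Among the steps between successive stages, only the first had SLC22 calls. From 60dG to 90dG, 4 of 9 probe sets were called, all higher, where 3.86% of all probe sets were called and 2.04% were called higher. From 90dG to 125dG it was 0 of 9, against 2.34% of all, and from 125dG to 160dG it was 0 of 9, against 0.031%. Among 9 probe sets a count of 0 lies close to these shares, so nothing particular to the family is read from the later steps. At an unadjusted p under 0.05 the counts were 1 of 9 from 90dG to 125dG and 2 of 9 from 125dG to 160dG, each of the 3 in SLC22A7. The F over stages was called for 4 of 9 and for 8% of all, and the slope for 3 of 9 and 4.11%. Read by overlap alone, 90dG arrays lay above 60dG arrays for 6 of 9 (17.5% of all probe sets), 125dG below 90dG for 2 (11.7%) and above for 1 (11%), and 160dG above 125dG for 2 (6.87%). With 1 probe set a gene, the median difference from 60dG to 160dG was 1.41 for the 6 SLC22 genes, 3 of them called, and 0.01 for all 9580 genes, of which 5.73% were called.

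**Figure D2:**
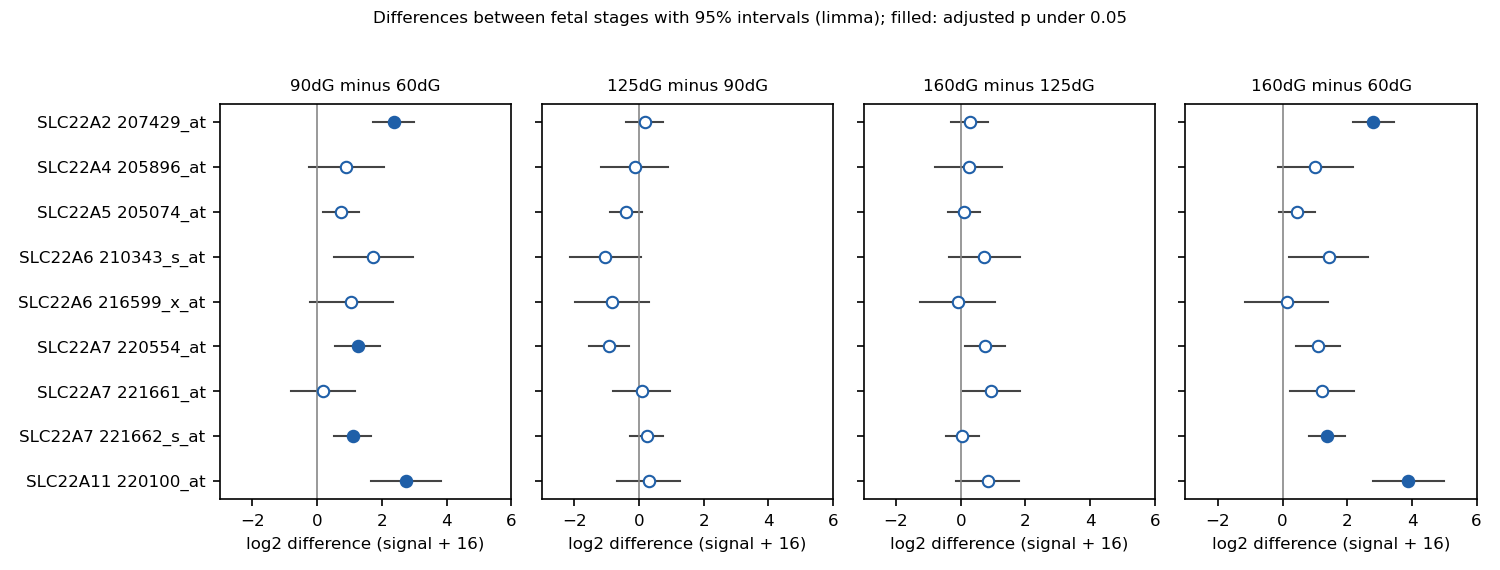
Difference in log2(signal + 16) between fetal stages for each SLC22 probe set, with its 95% interval from limma. Filled points passed at an adjusted p under 0.05. The filled points lie in the panels from 60dG to 90dG (4 of 9) and from 60dG to 160dG (3 of 9), and the panels of the later steps have none.

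Because these carriers belong to proximal tubule cells, each SLC22 value was also set against the median of the 19 measured proximal tubule markers on the same array. From 60dG to 160dG, 15 of those 19 markers rose and none fell, with a median difference of 1.54, where 3.28% of all 9580 genes were called higher. SLC22A2 rose by 1.27 ± 0.32 beyond the marker median (limma, adjusted p = 0.00124) and SLC22A11 by 2.35 ± 0.46 (limma, adjusted p = 0.000101). With the 60dG arrays of SLC22A11 set at their highest bacterial control, its excess was at least 0.73. Only 0.254% of all probe sets were called higher on this relative scale. Of the 19 markers, AQP1 (a water channel) and GATM (creatine synthesis) had a larger difference than SLC22A2. No marker exceeded the measured difference of SLC22A11, but 2 exceeded its lower bound of 2.27, so its place among the markers is not settled.

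At 90dG, SLC22A2 was already 1.03 ± 0.32 beyond the marker median (limma, adjusted p = 0.00707), where 0.161% of all probe sets were called higher. SLC22A11 measured 1.41 ± 0.46 beyond it (limma, adjusted p = 0.00821). With its 60dG arrays set at the bacterial control that value was -0.21, so an excess of SLC22A11 at 90dG is not shown. The call also did not pass with 60dG replicate 1 left out (limma, adjusted p = 0.0906) or with a pseudocount of 64 (0.147). SLC22A5, which had not passed on its own scale, fell behind the markers by 1.10 ± 0.35 from 60dG to 160dG (limma, adjusted p = 0.00575), a call lost without 60dG replicate 1 (0.0606) or 160dG replicate 1 (0.0572). SLC22A6 216599_x_at was lower by 1.42 ± 0.61 (a difference of -1.42; limma, adjusted p = 0.0336), which was lost without 60dG replicate 1 (0.0523) or 2 (0.189) or 160dG replicate 3 (0.146), or with a pseudocount of 1 (0.299). Since 83.8% of all probe sets were called lower on this scale, nothing particular to SLC22A5 or SLC22A6 is read from these calls. For SLC22A7 221662_s_at the relative difference was -0.16 ± 0.35 (95% interval -0.87 to 0.56; limma, adjusted p = 0.666).

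**Figure D3:**
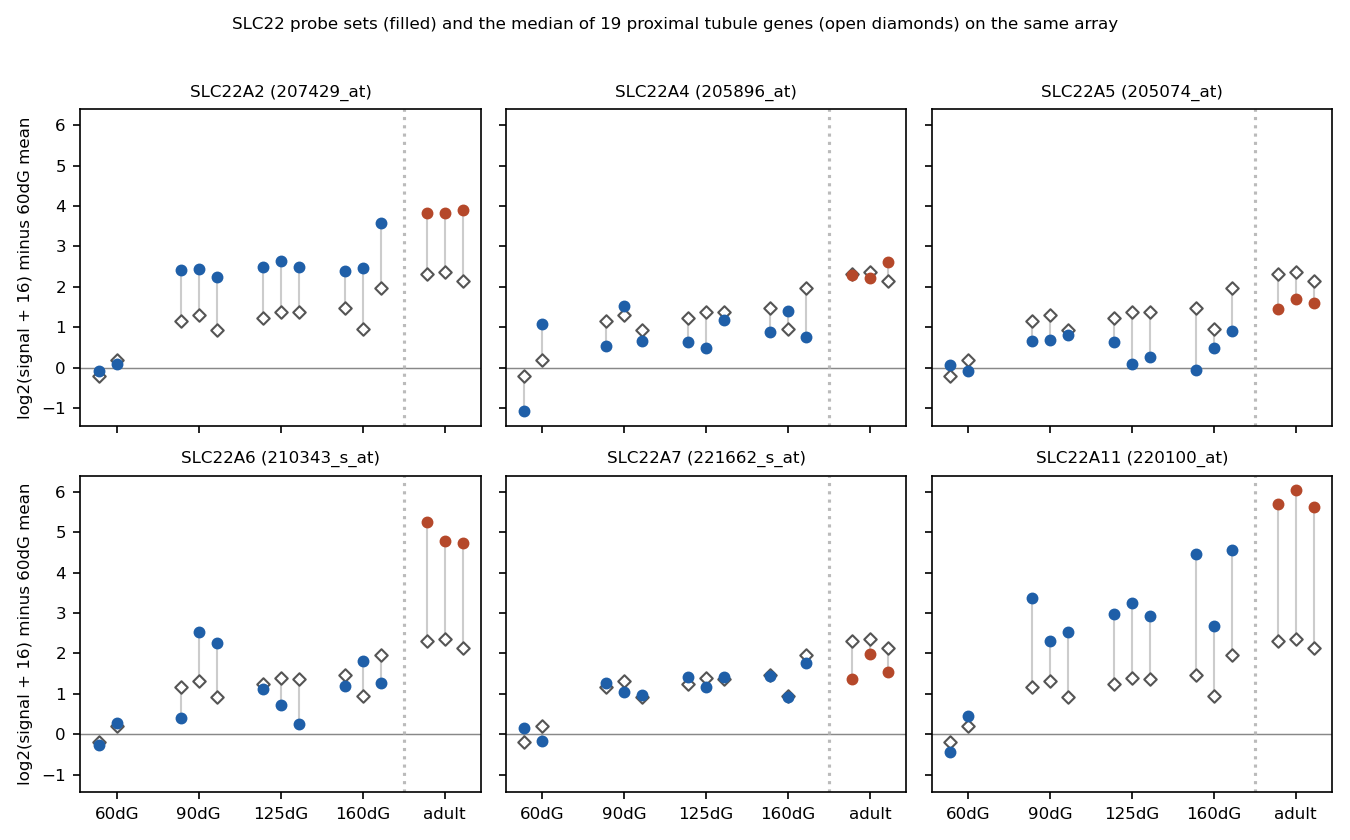
Each SLC22 gene (filled points, 1 probe set a gene) and the median of 19 proximal tubule markers (open diamonds) on the same array, as log2(signal + 16) minus the 60dG mean. Grey lines join the values of 1 array, and arrays right of the dotted line are of the adult array type. SLC22A2 lies above the diamonds on every array from 90dG on, as does SLC22A11, whose 60dG reference was at array background, SLC22A5 lies below them on all of these arrays, and SLC22A7 lies close to them until the adult.

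Likeness over the fetal arrays was read for the 3 genes brighter than the median probe set (a signal of 178) against 5277 other genes. The nearest genes to SLC22A2 were AQP1 (r = 0.98), the glucose carrier SLC5A2 (r = 0.98) and the chemokine CXCL14 (r = 0.97). SLC22A7 221662_s_at was nearest to the hydroxyproline-degrading enzyme PRODH2 (r = 0.97), the polyamine acetyltransferase SAT1 (r = 0.95) and the protease CTSL (r = 0.94). SLC22A5 was nearest to the kinase CSNK1A1 (r = 0.91), the phosphatase PTPRK (r = 0.91) and the reductase BLVRB (r = 0.89). AQP1 and SLC5A2 are in the proximal tubule marker list and none of the genes nearest to SLC22A5 is. These are descriptions over 11 arrays that share a stage structure.

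Carriers and enzymes that work beside the SLC22 proteins were read from lists, with 1 probe set a gene. Of the carriers and pumps for apical exit, 9 of 10 were measured, and 2 rose and none fell from 60dG to 160dG, with a median of 0.67. Of all genes, 3.28% were called higher in this comparison, which is the background for each list count here. SLC17A1, an apical phosphate and organic anion carrier, went from 406 ± 104 (SD, n = 2) to 1055 ± 331 (SD, n = 3) and rose by 1.32 ± 0.27 (limma, adjusted p = 0.0116), a call lost without 60dG replicate 1 (0.175) or without an intensity trend in eBayes (0.0575). SLC47A1 (MATE1), which passes to the urine the cations that SLC22A2 takes up, went from 219 ± 39.4 to 610 ± 238. It rose by 1.35 ± 0.36 (limma, adjusted p = 0.0464), a call lost in 12 of 21 alternatives, among them leaving out either 60dG array (0.15 and 0.252), 90dG replicate 2 or 3, 125dG replicate 2, or 160dG replicate 1 or 3 (0.0566 to 0.153).

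Of the genes of carnitine synthesis and use, 7 of 11 were measured and 2 rose, with a median of 0.33. BBOX1, the last enzyme of carnitine synthesis, went from 87.7 ± 13.0 to 467 ± 306 and rose by 2.05 ± 0.43 (limma, adjusted p = 0.0127). That call was lost without 60dG replicate 1 (0.0767) or 2 (0.102). CROT, a peroxisomal carnitine acyltransferase, rose by 1.59 ± 0.28 (limma, adjusted p = 0.00368), which was lost without 60dG replicate 2 (0.0587). SLC22A5, the carrier that supplies carnitine, did not pass in the same comparison.

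The dicarboxylate carriers that feed the exchange of organic anions had 0 of 4 measured genes called (of 6 listed; median 0.30), and other organic ion carriers had 0 of 10 (of 15 listed; median 0.03). At an unadjusted p under 0.05 these counts were also 0 and 0 (limma). The 2 other SLC22 genes measured, of 15 listed, did not pass either, and 1 had an unadjusted p under 0.05. SLC22A17 differed by 0.47 ± 0.21 (limma, adjusted p = 0.271) and SLC22A14 by -0.05 ± 0.24 (limma, adjusted p = 0.954). Of 9 listed transcription factors that act on SLC22 genes, 4 were measured. From 60dG to 90dG 0 of the 4 were called, with a median of -0.06, where 238 of all 9580 genes were called higher. From 90dG to 125dG 2 were called higher, where 96 of all genes were. From 60dG to 160dG 2 rose. The nuclear receptor PPARA rose by 1.09 ± 0.25 (limma, adjusted p = 0.0225), lost without 60dG replicate 1 (0.212) or 2 (0.0655) or 160dG replicate 2 (0.0679) or 3 (0.0632), without an intensity trend (0.0554) or with a replicate block (0.054). The stress-response factor NFE2L2 rose by 0.66 ± 0.15 (limma, adjusted p = 0.0213), lost without 60dG replicate 1 (0.185) or 2 (0.0935) or 160dG replicate 3 (0.0825), without an intensity trend (0.119) or with a replicate block (0.0502).

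Adult and 160dG arrays are of different types, so array type and age cannot be told apart, and the comparison between separately deposited tables is given without a test. SLC22A6 showed the widest gap of the family. Probe set 210343_s_at read 959.8, 681.6 and 658.9 in adult replicates 1, 2 and 3, and 216599_x_at read 1487, 929.6 and 764.1. All 3 adult arrays exceeded their highest bacterial control on both probe sets and lay far above every fetal array. The adult minus 160dG difference as measured was 3.49 for 210343_s_at and 5.16 for 216599_x_at, with 1 and 0 of 3 arrays at 160dG above the control. With the 160dG arrays of 216599_x_at set at their highest bacterial control, the adult level was at least 12.1-fold higher, or 3.60 on the log2 scale. With the 2 dim 160dG arrays of 210343_s_at raised to the control, its difference was 3.01.

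SLC22A11 read 1509.4, 1930.7 and 1434 in adults, 1.89 above 160dG. SLC22A2 read 1395.6, 1379.4 and 1458, which was 1.04 above 160dG. The adult SLC22A2 arrays agreed closely with each other, and 160dG replicate 3, at 1159.4, came near them. The OCTN genes were higher too, SLC22A4 at 335.1, 316.5 and 422.6 (a difference of 1.36) and SLC22A5 at 939.8, 1120.7 and 1033.1 (1.14).

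By the difference of mean log2(signal + 16), the 3 SLC22A7 probe sets differed least between 160dG and adult. By the ratio of mean signals 220554_at, at 1.95, lay just above SLC22A2, at 1.93. Probe set 221662_s_at read 362.6, 558.1 and 408 in adults and overlapped 160dG, with a difference of 0.25. Probe set 220554_at read 463.7, 469.4 and 337.5, which did not overlap 160dG but was 0.95 higher, under the 2-fold limit. Probe set 221661_at read 16.2, 118.7 and 95.2 (0.11) and exceeded the bacterial control on 0 of 3 adult arrays.

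Over the family, 6 of 9 probe sets were at least 2-fold higher in adults without overlap, by the difference of mean log2(signal + 16), and none was 2-fold lower. By the ratio of mean signals SLC22A2, at 1.93, falls short of 2-fold. By the first rule 13.3% of all probe sets were higher and 9.82% lower. That count was 5 to 7 with any single array left out. On 7 of 9 probe sets all adult arrays lay above all 11 fetal arrays, as on 17.9% of all probe sets, the exceptions being SLC22A7 221661_at and 221662_s_at. Of the 19 proximal tubule markers, whose adult minus 160dG differences ran from -0.49 to 1.77 with a median of 0.57, 0 rose more than either SLC22A6 probe set, also with dim 160dG arrays raised to the control, or than SLC22A11. With single arrays left out, the SLC22A11 difference ran from 1.29 to 2.22, so its lead over the markers is not settled. Hepatocyte markers, 7 of 7 measured, summed to 575 to 1025 on fetal arrays and 1049 to 1150 on adult arrays. Their part, that of the adrenal markers and that of the brighter dim end of the adult arrays were not tested.

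**Figure D4:**
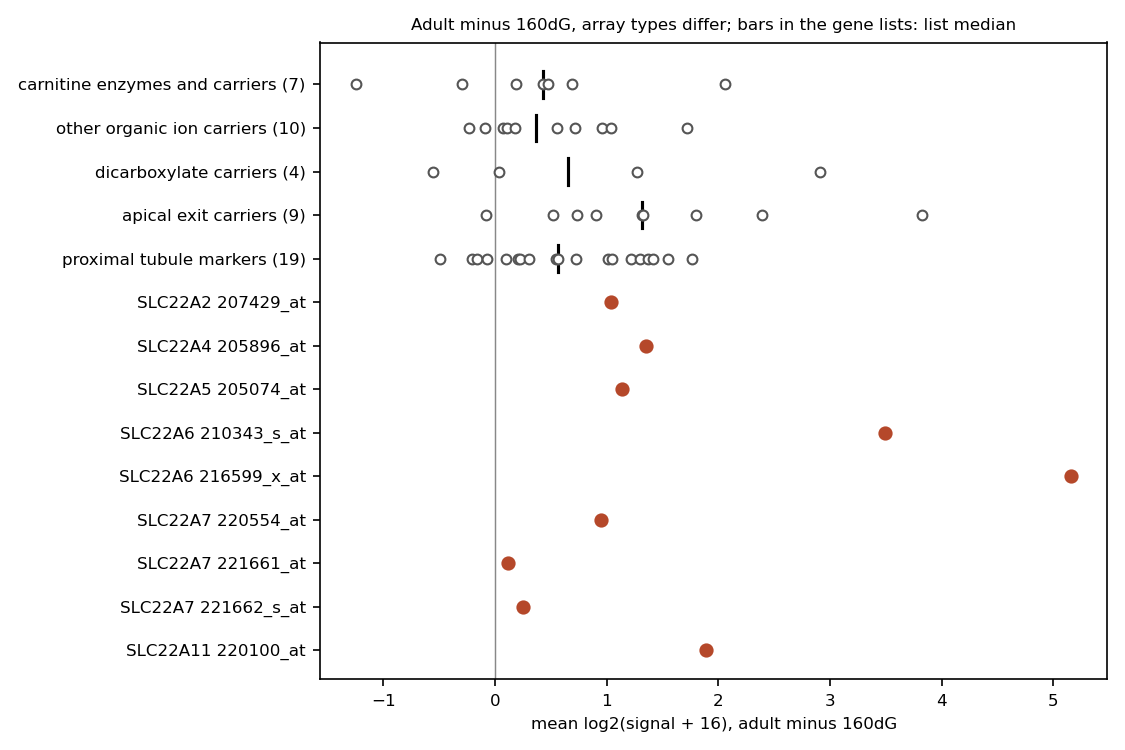
Adult minus 160dG difference in mean log2(signal + 16) for the 9 SLC22 probe sets (filled) and for the genes of 5 lists (open, 1 probe set a gene, bars at the list median). The 2 SLC22A6 probe sets lie at 3.49 and 5.16, right of all 19 proximal tubule markers, while SLC22A7 221661_at and 221662_s_at lie near 0.

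Among the neighbouring carriers, chosen for mention after their values were seen, the apical phosphate and urate carrier SLC17A3 went from 162 ± 9.50 at 160dG to 2505 ± 245 in adults (SD, n = 3 each), a difference of 3.82. The dicarboxylate carrier SLC13A3, which loads the cell with the counter-ion of SLC22A6, went from 142 ± 101 to 933 ± 197, a difference of 2.91. SLC47A1 went from 610 ± 238 to 1481 ± 230 (1.32). Of the apical exit list, 5 of 9 genes were at least 2-fold higher without overlap and 0 lower, where 13.1% of all genes were higher, and of the dicarboxylate list 2 of 4 and 0. SLC22A17 was lower in adults, at 247 ± 25.8 against 523 ± 34.1, a difference of -1.04.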

How the data were processed

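Total RNA from whole kidney was labelled with biotin as cRNA and hybridised to human Affymetrix arrays, per the labels. The authors deposited linear probe set intensities, for which the submitters' processing notes name GCOS. Version, signal algorithm and scaling were not given in the sources used here. The effect of baboon sequence on human probes was not analysed here. The 2 tables, fetal and adult, were used as deposited. Within the fetal table the trimmed means ran only from 344.1 to 351.9. The adult trimmed means were lower, at 329.9 to 333.7. The adult median signals were higher, at 210 to 214.1, against 172.9 to 194.3 on fetal arrays. The tables thus differed in scale, and the main comparison of adult with fetal arrays was not adjusted for it. Quantile normalization was run as an alternative.

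Groups came from the labels and gene names from the platform annotation, which assigned the 9 SLC22 probe sets alike in both array types and to no other gene. Values were transformed as log2(signal + 16), which understates changes of dim probe sets. All 16143 probe sets other than controls were fitted without a filter over the 11 fetal arrays in R 4.3.3 with limma 3.58.1, using lmFit and then eBayes with a trend on intensity. The contrasts were the F over stages, each step, 160dG minus 60dG and a slope per 10 days, with Benjamini-Hochberg adjustment over all probe sets. The fit was repeated after subtracting each array's median of 19 proximal tubule markers. The SLC22A5 to SLC22A4 ratio was tested with a two-sided exact permutation of stage labels. For lists, each gene was read by its probe set of highest fetal mean. Where every array of the dimmer group read at or below its highest bacterial control, a lower bound replaced those signals by that control. For SLC22A4 and SLC22A6 210343_s_at only the dim arrays were raised. The fits were tested on simulated data.

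Every SLC22 probe set is described. From each pathway list, the up to 4 called genes with the largest 160dG minus 60dG difference are named. SLC22A14, SLC22A17, SLC17A3, SLC13A3, AQP1 and GATM are named outside these rules, after their values were seen. Likeness is Pearson's r over the fetal arrays, for genes above the median of all probe sets. The members and lists were chosen with earlier results of these data known. The alternatives were the pseudocount, filters, array weights, quantile normalization, a replicate block, eBayes without a trend, the GAPDH ratio as a covariate, and leaving out the 90dG group or each array.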

Additional observations from a re-analysis of the deposited data

How the results depend on the processing

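SLC22A2 kept its calls for the F over stages, 90dG minus 60dG, 160dG minus 60dG and both relative comparisons in every alternative run, its 160dG minus 60dG difference running from 2.34 (pseudocount 64) to 3.02 (without 160dG replicate 1). SLC22A11 kept its calls for the F, the slope, 160dG minus 60dG and the relative 160dG minus 60dG in every alternative that tested it, the 160dG minus 60dG difference running from 2.66 (pseudocount 64) to 5.02 (pseudocount 1). Filtering above the median left 3 of the 9 probe sets, and SLC22A11 was not among them. With that filter, alone or together with 1 probe set a gene, the called SLC22 probe sets were 2 instead of 4 for 90dG minus 60dG and for the F, 2 instead of 4 for the relative 160dG minus 60dG, and 1 instead of 2 for the relative 90dG minus 60dG, since fewer were tested. With 1 probe set a gene and no filter, 3 of 6 genes were called for 90dG minus 60dG and for the F. Array weights gave 5 for each. Without an intensity trend, and with the GAPDH covariate, 90dG minus 60dG gave 2. With that covariate the relative 90dG minus 60dG gave 4. The cause was not tested for these 3. Leaving out 1 array gave 3 to 4 called for 160dG minus 60dG, 1 to 4 for 90dG minus 60dG, 0 to 1 for 125dG minus 90dG, 0 to 0 for 160dG minus 125dG, 2 to 4 for the F, 1 to 3 for the slope, 3 to 4 and 1 to 3 for the relative comparisons with 160dG and 90dG, 5 to 7 for adult minus 160dG, and -1.73 to 0.58 for the SLC22A5 to SLC22A4 ratio. With 1 of the 60dG arrays left out, the spread of the remaining one was taken from the other groups. No called value reversed.

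With the replicate number as a block, 90dG minus 60dG called 2 SLC22 probe sets instead of 4, SLC22A7 220554_at (limma, adjusted p = 0.0891) and 221662_s_at (0.0556) being lost, the F called 3 instead of 4 and the slope 2 instead of 3. Over all probe sets it called 374 instead of 623 for 90dG minus 60dG and 623 instead of 779 for 160dG minus 60dG. Same-numbered arrays of different stages had correlations of deviations from -0.04 to 0.10 (1 of 15 over 0.1), which gives no sign that the numbers pair the samples. Deviations within a stage sum to 0, so these values are not independent and cannot settle whether the samples are paired. Over all probe sets and besides leaving out single arrays, the other fetal counts without the markers that moved by more than 1.5 times were those of 90dG minus 60dG, with 229 (no trend) and 320 (GAPDH covariate), of 125dG minus 90dG, with 78 and 53 against 377, or 871 with array weights, of the F, with 515 (no trend) and 563 (no 90dG group) against 1292, of the slope, with 410 (no trend) against 664, and of 160dG minus 125dG, with 0 to 27 against 5, where SLC22 stayed at 0. Leaving out 1 array gave 315 to 942 for 160dG minus 60dG (315 and 459 without 60dG replicates 1 and 2), 61 to 1053 for 90dG minus 60dG (61 and 184 without 60dG replicates 1 and 2, 1053, 297 and 260 without 90dG replicates 1, 2 and 3), 28 to 994 for 125dG minus 90dG (28 to 73 without 1 of the 125dG arrays, 994, 164 and 70 without 90dG replicates 1, 2 and 3), 615 to 1776 for the F (615 and 813 without 60dG replicates 1 and 2, 785 and 783 without 90dG replicates 2 and 3), 370 to 694 for the slope (370 without 60dG replicate 1, 377 and 393 without 160dG replicates 1 and 3), and 0 to 16 for 160dG minus 125dG. The relative 90dG minus 60dG called 8208 without 60dG replicate 1, against 12329. For adult minus 160dG, 2152 were higher and 1585 lower, against 1673 and 1773 with quantile normalization and 1067 and 1064 with a pseudocount of 64. The planned ratios of SLC22A2 to SLC22A3 and SLC22A6 to SLC22A8 were not run, since SLC22A3 and SLC22A8 were not analysed here.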
